A study of Mus musculus with 14 samples.

Results

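The comparison takes 8 of the 14 arrays of a series on whole eyes of newborn mice, 4 from eyes with a lens-conditional knockout of Snf2h (cKO) and 4 from wildtype eyes. Arrays were chosen by their sample titles alone. All 8 eyes carried the C57BL/6 strain label and were taken at postnatal day 1, no drug or other treatment is named, and the groups differ by the genotype label only. RNA of the whole eye was used, 50 ng of it amplified and labelled with biotin for each single-colour array. The other 6 arrays belong to a Brg1 experiment and entered only 1 alternative fit. The promoter that drove Cre in the lens is not given in the labels used here, and neither are litter, sex or animal. The series text calls the replicates biological; where they shared an animal or a preparation, the p-values measure only the spread between these samples.

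Snf2h, encoded by Smarca5, is the motor subunit of ISWI complexes, which slide nucleosomes along DNA and set their spacing, and which act in transcription, replication and repair. The lens grows from a front layer of dividing epithelial cells. At the equator these cells stop dividing, elongate into fibre cells, fill with crystallins and then break down their nuclei and other organelles. The whole eye also holds neural retina, pigment cells, cornea, sclera, vessels and the start of eye muscle, so lens RNA is only a share of each sample. In such bulk RNA, fewer cells of a type and less RNA per cell cannot be told apart. Markers of the labelled tissue were present. The 14 measured crystallins had a median level of 12.72, and Crx, a photoreceptor transcription factor, lay between 9.80 and 10.79 on all 8 arrays. Values below are log2 of the deposited intensity, and sets of 4 values run from replicate 1 to replicate 4.

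The arrays were alike in brightness, with median intensities from 101.0 to 112.3, but differed in quality. Between cKO replicates 1 and 2 the log2 differences had a standard deviation of 0.088 across 1824 bright genes, those with a mean level of at least 10. The other 5 pairs of cKO arrays gave 0.236 to 0.284, and the 3 pairs among wildtype replicates 1, 2 and 4 gave 0.240 to 0.303. Pairs of 1 wildtype and 1 cKO array, with wildtype replicate 3 left out, gave 0.245 to 0.319, so over all bright genes the groups lay about as far apart as arrays within a group. The near-identical pair was therefore also counted as 1 sample, with cKO replicates 1 and 2 averaged before the test.

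Wildtype replicate 3 stood apart from the other 7 arrays. Its 3' probe set of Gapdh exceeded the 5' probe set by 4.47, a sign of degraded RNA, against 1.31, 1.46 and 1.09 in the other wildtype arrays and 0.97, 0.84, 0.77 and 0.99 in the cKO arrays. Every cKO array had a smaller difference than any wildtype array. For Actb the same difference was 2.14, 2.18, 3.08 and 1.44 in wildtype and 1.83, 1.70, 1.34 and 1.38 in cKO arrays, so the groups overlapped. Among bright genes, 28 were over 2-fold lower in wildtype replicate 3 than in each of the other 7 arrays, against 1 gene for cKO replicate 4 and 0 for each of the other 6 arrays. The ribosomal protein gene Rps9 was at 8.91 there and at 11.86 to 12.69 elsewhere, and Rabac1, a Rab-binding protein of the Golgi, at 5.59 against 8.91 to 10.08. Genes of surface epithelium lay the other way, with Krt5 at 11.86 against 9.45 to 10.92 and Krt8 at 10.91 against 7.95 to 9.80. These genes were picked for their gap after the values were seen. Xist, the RNA that coats the silenced X, lay at 2.35 to 4.92 in 2 wildtype and 3 cKO arrays, and at 11.24 to 11.67 in the other 3.

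**Figure D1:**
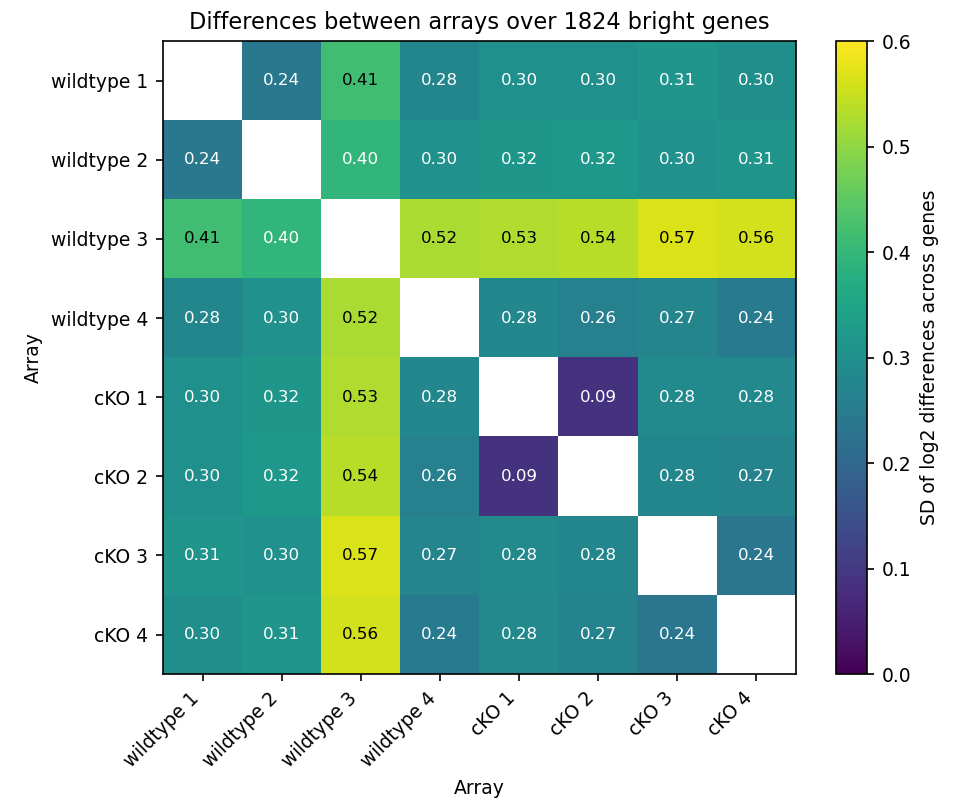
Standard deviation of the log2 differences between each pair of the 8 arrays, across 1824 bright genes (colour and number in each cell; rows and columns are arrays). cKO replicates 1 and 2 differ least, at 0.09, and every pair with wildtype replicate 3 lies between 0.40 and 0.57.

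The knocked-out gene was examined first, although the position of its probe sets relative to the deleted part is not known, so none of them checks the deletion. The brightest of 3 Smarca5 probe sets read 9.35, 9.82, 9.34 and 9.36 in wildtype and 9.73, 9.45, 8.52 and 9.41 in cKO arrays. Only cKO replicate 3 lay below every wildtype array, and without it the difference of −0.19 ± 0.25 (SE, limma adjusted p = 0.71) became 0.06. A second probe set, at a mean level of 9.15, read 9.45, 9.65, 9.46 and 9.02 in wildtype and 8.90, 8.91, 8.72 and 9.05 in cKO arrays. Its difference was −0.50 ± 0.16 (SE, limma unadjusted p = 0.0128, adjusted p = 0.188 over all probe sets). The groups overlapped through wildtype replicate 4 and cKO replicate 4. The third and dimmest probe set, at 7.48, gave 0.31. The RNA of 3 other genes of ISWI complexes had small differences. Baz1b of the WICH complex differed by 0.19 ± 0.13 (SE), Bptf of NURF by −0.06 ± 0.20 and the paralogous motor Smarca1 by −0.20 ± 0.12. These 3 were named for their role, not for their values.

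Across all 12393 genes, 2 passed a limma adjusted p under 0.05, which is 0.0161% of those tested. St14 rose and Acsf2 fell. St14 encodes matriptase, a membrane serine protease of epithelia. Its levels were 6.68, 6.83, 6.84 and 6.84 in wildtype and 7.99, 7.83, 7.71 and 7.94 in cKO arrays. The cKO arrays all lay above the wildtype arrays by more than the spread within either group, a 2.1-fold rise (1.07 ± 0.12 SE, limma adjusted p = 0.0448). Acsf2, a mitochondrial member of the acyl-CoA synthetase family, read 8.84, 8.67, 8.74 and 8.80 in wildtype and 7.0, 7.13, 7.67 and 6.95 in cKO arrays. It was 2.98-fold lower (−1.58 ± 0.17 SE, limma adjusted p = 0.0448), again with no overlap. Without wildtype replicate 3 the change was 1.09 for St14 and −1.58 for Acsf2, but both calls were lost when cKO replicates 1 and 2 were averaged (adjusted p = 0.21 for each). Both were also lost without wildtype replicate 2 (0.0561), without wildtype replicate 3 (0.0564), without cKO replicate 1 (0.18) or 2 (0.24) and without cKO replicate 4 (0.119 and 0.114). Without cKO replicate 3 St14 was lost (0.0813) and Acsf2 kept (0.00792). With the Gapdh difference as a covariate both had an adjusted p of 0.102, and over all alternatives it ran from 0.00792 to 0.253. Each gene has 1 probe set on the array.

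Below that threshold many genes differed more than the within-group spread, and the brighter ones were the steadier. At an unadjusted p under 0.05, 1022 genes were higher in cKO eyes (8.25%) and 1068 lower (8.62%). In 680 genes every cKO array lay above every wildtype array (5.49%), and in 598 every cKO array lay below (4.83%). The median spread within groups was 0.13 for the 181 genes with a mean level of at least 12, 0.18 for the 1643 between 10 and 12, 0.23 for the 3494 between 8 and 10, and 0.32 for the 7075 dimmer ones. The share at an unadjusted p under 0.05 went from 4.97% in the brightest group through 11.5% and 16% to 18.8% in the dimmest. Bright genes leaned upward, with 121 higher and 77 lower, and dim genes leaned downward, with 557 higher and 776 lower. Changes of over 2-fold were found in 6 bright genes, all higher, in 19 higher and 19 lower genes of the middle group, and in 81 higher and 166 lower dim genes. Of the 25 higher genes with a level of at least 8, wildtype replicate 3 was the lowest wildtype array in 24, and 4 stayed over 2-fold without it (Sncg, Kif5c, Apoe and Map1b), against 13 of the 19 lower genes. Of the 6 bright ones Sncg alone stayed, at 1.09 on the log2 scale, while Rps9 came to 0.53, Rps14 to 0.38 and Sox4 to 0.60; these genes are named after their values were seen.

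This count was smaller when the arrays that stood apart were averaged or left out, and also when some other arrays were left out. In both directions together it was 2090 with all 8 arrays, 1732 without wildtype replicate 3, 1686 without cKO replicate 3 and 1778 without cKO replicate 4. It rose to 2169 without wildtype replicate 1 and 2695 without wildtype replicate 4. With the pair averaged it was 1410, and without cKO replicate 1 or 2 it was 1442 or 1403. The share due to fewer samples was not tested. With cKO replicates 1 and 2 averaged, 667 genes were higher and 743 lower, with 67 and 52 among bright genes, and the smallest adjusted p over all genes was 0.21. Without wildtype replicate 3 there were 863 and 869, with 92 and 48 among bright genes. The 1 gene called then was Slc22a29, a transporter family member that was 6.98-fold lower (limma adjusted p = 0.012) and is named here because of that call. With both changes 577 genes were higher and 567 lower, and 515 of the 1022 higher genes (50.4%) and 504 of the 1068 lower genes (47.2%) were among them. Among the 465 higher genes with a mean level of at least 8, wildtype replicate 3 was the lowest wildtype array in 71.8%, against 31.6% of all 5318 genes of that level. Among the 292 lower genes it was the highest wildtype array in 69.9%, against 35.1%. With the Gapdh difference as a covariate, 83 bright genes had an unadjusted p under 0.05 where 198 had it without.

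**Figure D2:**
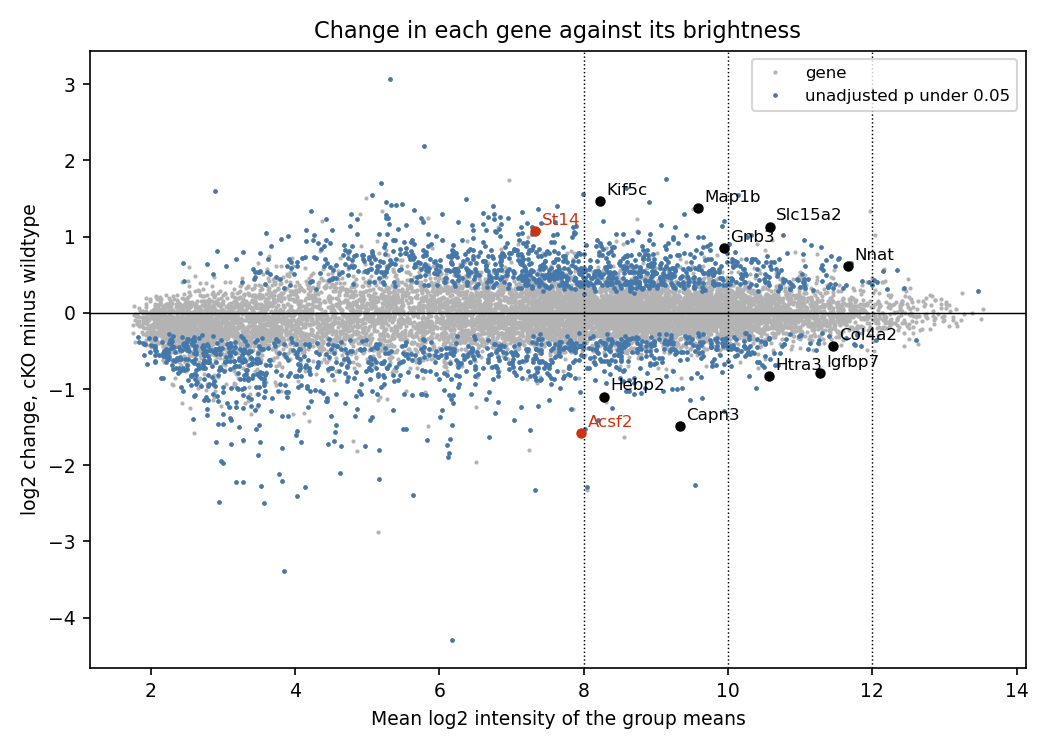
Difference between the cKO and wildtype means of each of 12393 genes (vertical axis, log2) against the mean of both groups (horizontal axis, log2 intensity); dotted lines mark levels 8, 10 and 12. Genes at an unadjusted p under 0.05 are blue, named genes black, and the called genes St14 and Acsf2 red; above a level of 8, differences narrow as genes get brighter.

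The 10 brightest genes of the eye were nearly level between groups. They were the ribosomal genes Rpl41, Rpl35, Rplp2, Rpl13a and Rpl27a, the crystallins Cryba1, Crybb3 and Cryga, the mitochondrial channel Vdac1 and the actin monomer-binding protein Tmsb10. Differences ran from −0.17 for Cryga to 0.28 for Tmsb10, and 9 of the 10 had no unadjusted p under 0.05. Tmsb10 was the exception, at 13.34, 13.29, 13.25 and 13.42 in wildtype and 13.64, 13.60, 13.61 and 13.57 in cKO arrays. The groups did not overlap, yet the difference of 0.28 ± 0.11 (SE) had a limma adjusted p of 0.259. The next brightest Tmsb10 probe set, at a level of 12.94, gave 0.06 and its groups overlapped. The remaining probe sets of the gene gave 0.24, 0.18 and 0.02. The 48 ribosomal protein genes as a list had a median difference of 0.06 against −0.05 over all genes. At an unadjusted p under 0.05, 4 were higher (8.33%, against 8.25% of all genes) and 1 lower (2.08%, against 8.62%). Rpl27 read 12.23, 12.15, 11.59 and 12.27 in wildtype and 12.76, 12.66, 12.62 and 12.44 in cKO arrays, a difference of 0.56 that became 0.40 without wildtype replicate 3.

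Among bright genes whose groups did not overlap, none of the 10 with the smallest p on the higher side passed the adjusted threshold (limma adjusted p = 0.123 to 0.165). Dusp26, a dual-specificity phosphatase, read 9.84, 9.86, 9.79 and 9.72 in wildtype and 10.57, 10.55, 10.20 and 10.54 in cKO arrays, with cKO replicate 3 nearest to the wildtype range (1.58-fold, 0.66 ± 0.13 SE). Tagln3, a neuronal calponin-family protein, read 9.70, 10.03, 9.42 and 9.88 against 10.46, 10.28, 10.53 and 10.49. Rtn1, a reticulon of neuronal endoplasmic reticulum, read 9.53, 10.02, 9.65 and 10 against 10.46, 10.37, 10.44 and 10.42. In both genes the cKO arrays lay close together and the wildtype arrays were spread wider, with no overlap. Crabp1, which binds retinoic acid in the cytosol, read 11.08, 11.33, 10.90 and 11.42 in wildtype and 11.86, 11.88, 11.65 and 11.78 in cKO arrays. The imprinted proteolipid gene Nnat read 11.43, 11.42, 10.94 and 11.63 against 11.97, 11.98, 11.98 and 11.92, with wildtype replicate 3 lowest (1.53-fold, 0.61 ± 0.16 SE, and 0.47 without that array).

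The other 5 bright genes on the higher side were of mixed role. Slc15a2, a peptide transporter, had the largest fold of the 10, at 2.18, and the widest spread: 10.61, 9.49, 9.54 and 10.43 in wildtype against 11.31, 11.37, 10.62 and 11.28 in cKO arrays. Wildtype replicate 1 and cKO replicate 3 were all but level, and its other probe set gave −0.22. Nfix, a transcription factor of the nuclear factor I family, differed by 0.66 ± 0.15 (SE), and all 4 of its other probe sets had the same sign. Maged1 (0.66), the clathrin adaptor subunit Ap2b1 (0.60) and the mitochondrial protein Mtres1 (0.62) completed the 10, and each kept an unadjusted p under 0.05 without wildtype replicate 3, with the pair averaged and with both changes. In Ap2b1 the near-identical pair stood at 10.59 and 10.54 and the other cKO arrays at 10.15 and 10.19, above a highest wildtype value of 9.93.

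On the lower side, none of the 10 bright genes was called either (limma adjusted p = 0.156 to 0.19). Col4a2, a chain of type IV collagen, which builds the lens capsule and other basement membranes, read 11.87, 11.50, 11.76 and 11.58 in wildtype and 11.24, 11.25, 11.15 and 11.30 in cKO arrays. Nid1, nidogen, which links laminin to that collagen, read 10.68, 10.32, 10.30 and 10.22 against 9.64, 9.69, 10.03 and 9.89, but its other probe set gave 0.41. In both genes the groups lay close together without overlapping. Htra3, a secreted serine protease, read 11.36, 10.68, 11.20 and 10.71 against 10.12, 10.04, 10.16 and 10.30, a 1.78-fold lower mean. Igfbp7, a secreted protein that binds insulin-like growth factors, read 11.69, 11.43, 12.00 and 11.57 against 10.61, 10.65, 10.91 and 11.35. For Igfbp7 the near-identical pair was lowest and cKO replicate 4 came close to the wildtype range. Its other probe sets gave −0.01, at a level of 8.08, and −0.94, at 7.07.

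Mthfd1, Phgdh and Srm are enzymes. Mthfd1, which supplies folate-bound carbon units, read 10.87, 10.83, 11.08 and 10.74 in wildtype and 10.12, 10.21, 10.24 and 10.55 in cKO arrays, a 1.52-fold lower mean, and both of its other probe sets gave the same sign. Phgdh, the entry enzyme of serine synthesis, read 10.93, 10.92, 11.20 and 10.39 against 10.35, 10.22, 9.83 and 10.21, with 2 of 3 other probe sets of the same sign. Srm, spermidine synthase, differed by −0.46 ± 0.12 (SE). Wildtype replicate 3 was the highest wildtype array in Mthfd1, Phgdh and Srm, and without it their differences were −0.53, −0.60 and −0.41. The prefoldin-like gene Uxt (−0.48), Rilpl1 (−0.46) and the clamp loader subunit Rfc4 (−0.53) were the others. A second Rfc4 probe set, at a level of 9.55, gave −0.08.

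**Figure D3:**
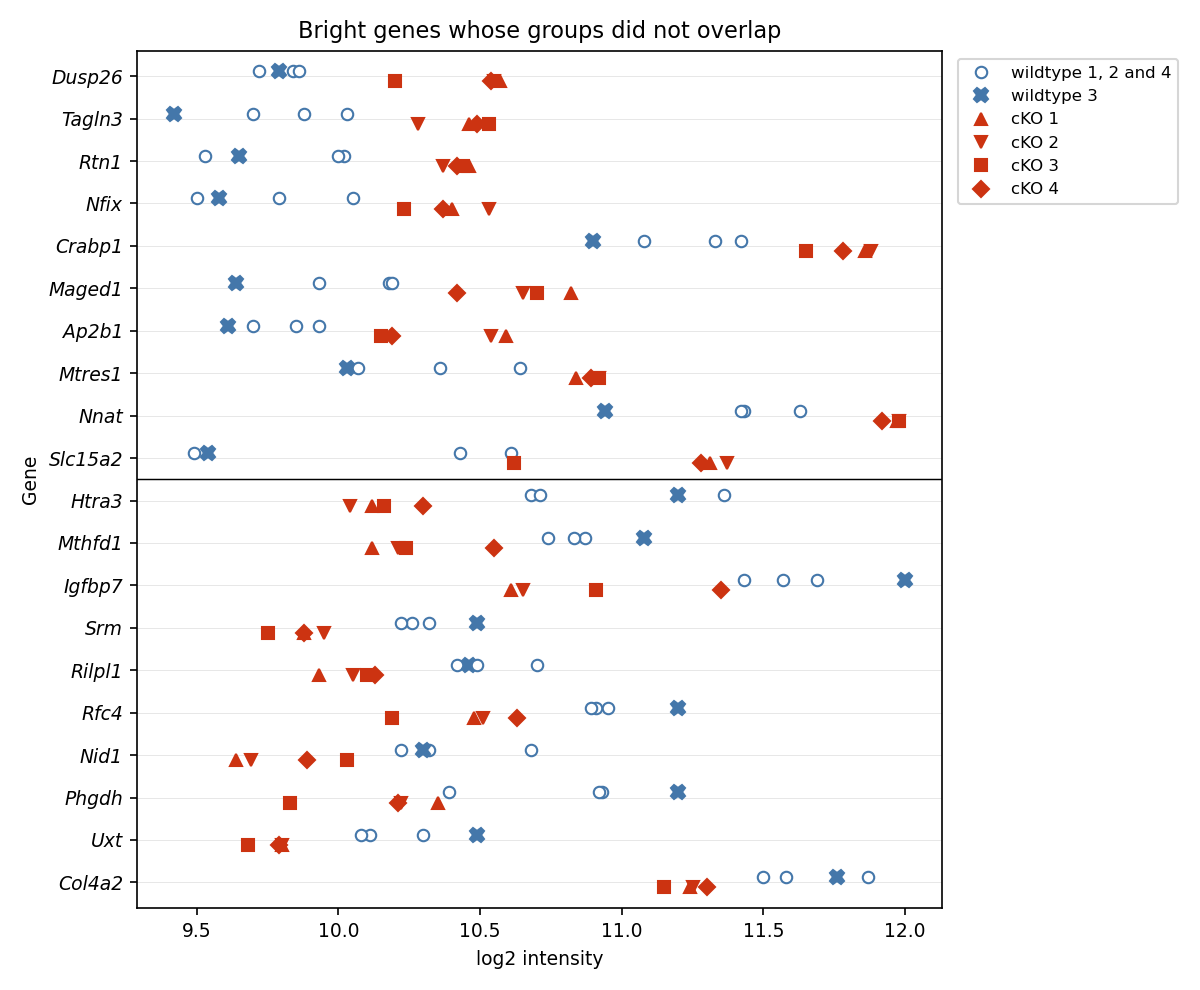
Level in each of the 8 arrays (log2 intensity) of the 10 bright genes with the smallest p on the higher side (above the line) and the 10 on the lower side (below it), among genes whose groups did not overlap. Filled red symbols are cKO arrays, blue symbols wildtype arrays and blue crosses wildtype replicate 3, which lies at the outer end of the wildtype values in many genes; Slc15a2 shows the widest spread.

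Genes of middle brightness gave larger differences, with Gnb3, Map1b and Kif5c of smallest p on the higher side. Gnb3, the beta subunit of cone transducin, read 9.58, 9.53, 9.44 and 9.55 in wildtype and 10.29, 10.26, 10.42 and 10.52 in cKO arrays. The groups were each tight and far apart (1.8-fold, 0.85 ± 0.12 SE, limma adjusted p = 0.0542, and 0.82 without wildtype replicate 3). Map1b, a microtubule-associated protein of growing axons, read 8.99, 9.04, 8.37 and 9.24 against 10.28, 10.46, 10.28 and 10.09. Its difference of 1.37 ± 0.19 (SE, adjusted p = 0.0542) was 1.19 without wildtype replicate 3, and both other probe sets had the same sign. Kif5c, a kinesin motor of neurons, read 7.59, 7.63, 6.83 and 7.91 against 8.88, 9.12, 9.12 and 8.72, 2.78-fold higher in the mean. A second, dimmer Kif5c probe set at a level of 4.64 gave −0.14. Dach1 (0.76), Tfap2b (1.02) and U2surp (1.15) were the other 3 of this group. Second probe sets gave −0.32 for Dach1, at a level of 5.36, and −0.02 for U2surp, at 8.01.

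On the lower side of the middle group stood Hebp2, a haem-binding protein, at 8.66, 8.95, 9.02 and 8.68 in wildtype and 7.62, 7.66, 7.68 and 7.96 in cKO arrays. Both Hebp2 probe sets gave −1.10, and the adjusted p of the one used was 0.0542 by limma. Ceacam10, a secreted cell adhesion family member, read 8.83, 9.50, 8.95 and 8.80 against 7.55, 7.45, 8.05 and 8.03 (2.38-fold lower mean), and its 2 other probe sets had the same sign. Cachd1 (−0.71), Zfp46 (−0.84), Rbpms (−0.86) and the fibre cell protease Capn3 (−1.49) completed the 6. Among dim genes, below 8, the 3 smallest p on each side went to St14, Epha4 and the potassium channel Kcnc1 above and to Acsf2, Ccr1 and Foxd1 below. Epha4, a receptor tyrosine kinase of axon guidance, read 6.05, 6.04, 5.62 and 5.97 against 6.97, 7.12, 7.06 and 6.87. Foxd1, a forkhead factor, read 6.56, 6.16, 6.26 and 6.15 against 5.16, 5.09, 5.39 and 5.28. Of the 38 genes named so far by smallest p, 21 had other probe sets, of which 24 gave the same sign and 9 the opposite sign.

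Crystallins, the structural proteins that fill the fibre cells, were among the brightest genes on the array and none was called. Of 14 measured, 12 had negative differences, and the median was −0.17 against −0.05 over all genes. At an unadjusted p under 0.05, 1 was lower (7.14%, against 8.62% of all genes). That gene, Crygf, read 12.58, 12.86, 12.85 and 12.83 in wildtype and 12.25, 12.33, 12.40 and 12.70 in cKO arrays (−0.36 ± 0.14 SE, limma adjusted p = 0.261). Its groups overlapped through wildtype replicate 1 and cKO replicate 4. Crygs read 12.89, 12.95, 12.58 and 12.96 against 12.13, 12.11, 12.64 and 12.86, and Cryab, a small heat shock protein, 12.47, 12.65, 12.45 and 12.71 against 12.15, 12.11, 12.39 and 12.53. In both, the near-identical pair was lowest, while cKO replicates 3 and 4 lay at or near the wildtype range. The median of the list relative to the wildtype mean was −0.35 and −0.37 in the pair, −0.03 and 0.09 in the other cKO arrays, and 0.03, 0.10, −0.24 and 0.14 in wildtype. The median difference was −0.27 without wildtype replicate 3, with 2 genes lower, and −0.10 without cKO replicate 2. With the pair averaged, no crystallin had an unadjusted p under 0.05.

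Fibre cell genes other than crystallins had larger differences and the same split. Over the 12 members with a level of at least 8 the median was −0.73. Of all 21 measured, 16 were negative and the median was −0.31, which was −0.18 with quantile normalisation, −0.17 with an offset of 32 and −0.20 without cKO replicate 3. Of the 21, 0 were called, 6 were lower at an unadjusted p under 0.05 (28.6%, against 8.62% of all genes) and 0 higher. In 4 of the 21 every cKO array lay below every wildtype array, against 4.83% of all genes. Hsf4, a heat shock factor needed for fibre maturation, read 8.21, 8.19, 7.79 and 8.39 in wildtype and 7.19, 6.98, 7.37 and 7.57 in cKO arrays (1.82-fold lower mean, −0.86 ± 0.18 SE, limma adjusted p = 0.137). All 4 cKO arrays of Hsf4 lay below all wildtype arrays, and the difference was −0.98 without wildtype replicate 3 and −0.80 with the pair averaged. Capn3, a calpain protease abundant in lens fibres, read 9.86, 10.11, 9.75 and 10.63 against 8.13, 8.10, 9.38 and 8.76. Dnase2b, the lysosomal nuclease that digests fibre cell DNA, read 8.73, 8.94, 8.54 and 8.95 against 6.54, 6.57, 7.59 and 8.32. In both genes cKO replicates 1 and 2 were lowest, and cKO replicate 3 (Capn3) or 4 (Dnase2b) came nearest to the wildtype arrays without overlapping them. Hspb1, a small heat shock protein, read 10.71, 11.19, 10.88 and 10.07 against 10.09, 9.91, 9.31 and 10.20, with the lowest wildtype array below 2 of the cKO arrays.

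In a set of genes the near-identical pair stood apart from all other arrays, the other cKO arrays included. Of the 5318 genes with a mean level of at least 8, 24 were lower in cKO replicates 1 and 2 than in each of the other 6 arrays by more than 0.5, and 7 were higher by as much. The 24 held 7 of the 26 measured crystallin and fibre genes of that level, and the 7 held 0. Mip, the water channel of fibre membranes, read 8.41 and 8.17 in the pair, 10.39 and 10.25 in cKO replicates 3 and 4, and 9.96 to 10.91 in wildtype arrays. Tdrd7, a fibre cell RNA granule protein, read 7.55 and 7.47, 8.89 and 9.07, and 8.80 to 9.37 in the same order. Crybb2 read 11.01 and 11.00, 12.45 and 12.64, and 11.99 to 12.49, so that cKO replicate 4 was above every wildtype array. Bfsp1, a beaded filament protein, read 9.36 and 9.39, 10.67 and 10.83, and 10.18 to 11.27. Caprin2, another RNA-binding protein of fibres, read 8.24 and 8.18, 9.43 and 9.22, and 8.87 to 9.82. The low end of the wildtype range in these 5 genes was wildtype replicate 3, the degraded array. Against the other 3 wildtype arrays, cKO replicates 3 and 4 both lay below wildtype in Mip (lowest 10.75), Tdrd7 (9.22) and Caprin2 (9.53), and cKO replicate 3 did in Bfsp1 (10.79). Averaged as 1 sample, the pair left differences of −0.96 for Mip, −0.68 for Tdrd7 and −0.49 for Bfsp1. On the high side of the pair were Pfkl, a subunit of phosphofructokinase, at 10.68 and 10.59 against 9.0 to 9.95 in the other 6 arrays, and the corneal keratin Krt12 at 10.63 and 10.51 against 9.12 to 9.90. These genes were chosen after their values were seen and carry no test beyond the fit.

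**Figure D4:**
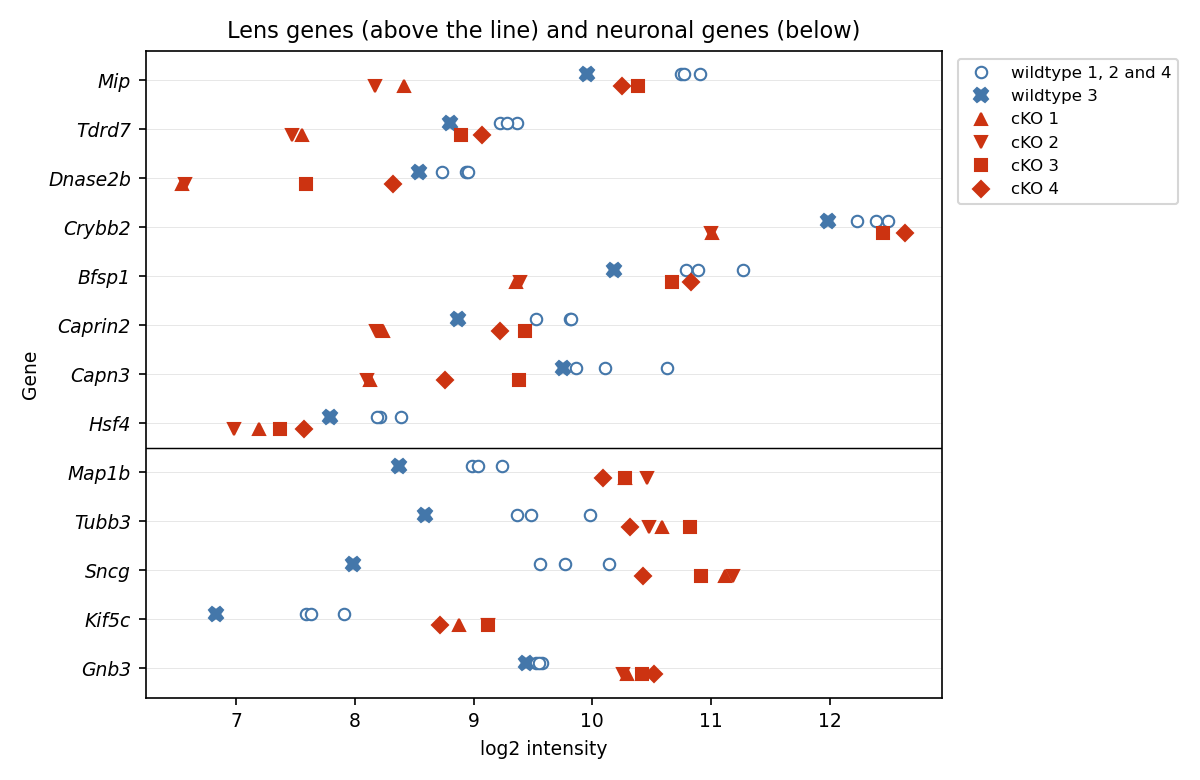
Level in each of the 8 arrays (log2 intensity) of 8 lens genes (above the line) and 5 neuronal genes (below it), chosen after their values were seen. cKO replicates 1 and 2 (red triangles) lie far below the other arrays in Mip, Tdrd7, Crybb2, Bfsp1 and Caprin2. There cKO replicates 3 and 4 lie above the pair and, except in Crybb2 and for cKO replicate 4 in Bfsp1, below wildtype replicates 1, 2 and 4. In these 5 neuronal genes all 4 cKO arrays lie above all wildtype arrays, and wildtype replicate 3 (blue cross) is lowest. Of the 33 listed inner retina genes, 10 lay wholly above wildtype and 2 wholly below.

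Lens epithelium genes and lens transcription factors differed little as a list. Of 25 measured, 0 were called and the median was −0.13. At an unadjusted p under 0.05, 1 was higher (4%, against 8.25% of all genes) and 4 lower (16%, against 8.62%). Pitx3, a homeobox factor of the lens, read 5.97, 5.98, 5.33 and 5.82 in wildtype and 4.82, 5.10, 5.10 and 5.42 in cKO arrays, with 1 cKO array above the lowest wildtype array. Fgfr3, a receptor for the growth factors that drive fibre formation, read 8.0, 8.30, 7.95 and 8.42 against 6.62, 6.53, 7.85 and 7.70, so the pair again carried most of the −0.99 ± 0.31 (SE, limma adjusted p = 0.205), and its other probe set gave 0.10. Gata3 gave −0.72 and Meis2 0.34. Of 20 genes of capsule and basement membrane, 5 were lower (25%) and 1 higher (5%) at that threshold, with a median of −0.19. Besides Col4a2 and Nid1, the dim collagen gene Col4a4 read 4.10, 4.12, 3.78 and 3.77 against 3.32, 3.02, 3.14 and 3.13. The higher one, the laminin chain Lamc1, read 7.51, 7.14, 6.87 and 7.24 against 7.91, 8.10, 7.91 and 8.05 (0.81 ± 0.15 SE, adjusted p = 0.123), with no overlap. A second Lamc1 probe set, at a level of 7.54 against 7.59 for the one used, gave 0.10 ± 0.24 (SE).

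Of 37 genes of DNA replication, 7 were lower (18.9%, against 8.62% of all genes) and 0 higher at an unadjusted p under 0.05. Without wildtype replicate 3 the count was 3 of 37, against 869 of 12393 over all genes, a share near the background. With all 8 arrays 0 were called and the median was −0.12. Mcm10, a replication initiation factor, read 8.57, 8.42, 8.92 and 8.62 in wildtype and 8.14, 8.18, 7.78 and 7.91 in cKO arrays. Gins4, of the replicative helicase, read 9.82, 9.77, 9.98 and 9.76 against 9.42, 9.33, 9.37 and 9.52, and Rfc4 and Cdc6 gave −0.53 and −0.31. In Mcm10, Rfc4 and Gins4 the groups did not overlap and wildtype replicate 3 was the highest array. Of 34 mitosis genes 3 were higher (8.82%, against 8.25% of all genes) and 1 lower (2.94%). Mki67, a marker of dividing cells, read 11.10, 10.89, 10.68 and 10.98 against 11.38, 11.19, 11.10 and 11.25 (0.32 ± 0.14 SE, adjusted p = 0.276), while the kinetochore gene Ndc80 gave −0.33, Bub1b 0.41 and Cenpe 1.23. The Cenpe difference was 0.76 without wildtype replicate 3, which read 4.71 against 6.36 to 7.53 elsewhere.

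Genes of cell cycle exit went both ways. Of 24 measured, 4 were higher (16.7%, against 8.25% of all genes) and 2 lower (8.33%, against 8.62%) at an unadjusted p under 0.05. The median was −0.06. Cdkn1c, the inhibitor p57 that lens cells make as they leave the cycle, read 9.43, 8.90, 8.96 and 9.09 in wildtype and 8.54, 8.49, 8.35 and 8.64 in cKO arrays (1.5-fold lower mean, −0.59 ± 0.15 SE, limma adjusted p = 0.164). All cKO arrays of Cdkn1c lay below all wildtype arrays. Another inhibitor, Cdkn2d, read 6.31, 7.19, 6.01 and 7.16 against 7.72, 7.58, 7.20 and 7.48, and Gadd45g gave 0.82. Gadd45b gave −0.47, with its other probe sets at −0.42 and 1.08.

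Photoreceptor genes had the highest median difference of the 30 lists. Of 32 measured, 25 were positive, the median was 0.47, 0 were called, and 14 were higher at an unadjusted p under 0.05 (43.8%, against 8.25% of all genes) and 0 lower. In 8 of the 32 every cKO array lay above every wildtype array, against 5.49% of all genes. Besides Gnb3, Tulp1, a transport protein of photoreceptors, read 6.93, 7.31, 7.04 and 7.08 in wildtype and 7.67, 7.95, 8.21 and 8.25 in cKO arrays (1.9-fold, 0.93 ± 0.16 SE, limma adjusted p = 0.105). Unc119, a lipid-binding carrier of transducin, read 9.23, 9.66, 9.55 and 9.45 against 9.99, 10.02, 9.90 and 10.03. Guca1b gave 0.69, with its other probe set at −0.14. The list medians relative to the wildtype mean were −0.16, 0.21, 0.03 and −0.06 in wildtype and 0.22, 0.29, 0.28 and 0.96 in cKO arrays, so cKO replicate 4 was far above the rest and wildtype replicate 2 nearly reached the lowest cKO array. Without wildtype replicate 3 the median was 0.53 with 11 higher and 1 lower, and with the pair averaged 12 were higher.

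The list median of inner retinal neuron and synapse genes was higher in every cKO array than in any wildtype array, by a small amount. Of 33 measured, 11 were higher (33.3%, against 8.25% of all genes) and 2 lower (6.06%, against 8.62%) at an unadjusted p under 0.05. In 10 every cKO array lay above and in 2 below every wildtype array, against 5.49% and 4.83% of all genes. Of the 33, 0 were called, and the median was 0.16. Tfap2b, a transcription factor of amacrine cells, read 8.93, 9.07, 8.51 and 9.11 in wildtype and 9.65, 9.79, 10.26 and 10.01 in cKO arrays. Gad2, which makes the transmitter GABA, read 5.71, 5.36, 5.15 and 5.33 against 6.35, 6.27, 7.34 and 6.74, and Syt1, a calcium sensor of synaptic vesicles, 4.11, 4.82, 3.97 and 5.25 against 5.49, 6.07, 6.30 and 6.11. In all 3 genes cKO replicate 3 was the highest array. Tubb3, the neuronal tubulin, read 9.37, 9.48, 8.59 and 9.98 against 10.59, 10.48, 10.82 and 10.32, and Sncg, a synuclein of ganglion cells, 9.77, 9.56, 7.98 and 10.14 against 11.12, 11.19, 10.92 and 10.43. For both, wildtype replicate 3 was lowest, and without it the differences were 0.94 in place of 1.20 and 1.09 in place of 1.55. Rbpms, an RNA-binding protein of ganglion cells, lay the other way at −0.86 ± 0.17 (SE, limma adjusted p = 0.123), and 2 of its 3 other probe sets had the opposite sign. The Gapdh difference was smaller in every cKO array than in any wildtype array, so a covariate cannot separate it from genotype. Its part in these lists was not tested. Both medians kept their sign in each of the 20 settings run, the Gapdh covariate among them. The photoreceptor median ran from 0.33 to 0.58 and the inner retina median from 0.11 to 0.28.

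Retinal progenitor, glial and pigment genes showed no common direction. Of 27 progenitor and glial genes 5 were higher (18.5%, against 8.25% of all genes) and 4 lower (14.8%, against 8.62%) at an unadjusted p under 0.05. Apoe, a lipid carrier of glia and macrophages, read 8.25, 8.24, 7.32 and 8.93 in wildtype and 9.52, 9.78, 9.54 and 9.69 in cKO arrays, 2.73-fold higher in the mean (1.45 ± 0.29 SE, limma adjusted p = 0.123, and 1.16 without wildtype replicate 3). Sox9 gave 0.72 with its other probe set at −0.67, Aqp4 −1.19 with its other probe set at 0.22, and Hes1 −0.38. Of 19 pigment cell genes 2 were higher and 2 lower (10.5% each). Pmel, of the melanosome core, read 11.31, 11.36, 11.13 and 11.38 against 11.72, 11.68, 11.52 and 11.76, a small difference (0.38 ± 0.12 SE) with no overlap. Ednrb gave 0.84, Lrat −0.45 and Rgr −0.48, the last carried by the pair at 8.16 and 8.24.

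Connective tissue genes, of the corneal stroma and the mesenchyme around the eye, had nearly all negative differences. Of 35 measured, 32 were negative, the median was −0.36 and 0 were called. At an unadjusted p under 0.05, 6 were lower (17.1%, against 8.62% of all genes) and 0 higher. Lox, which cross-links collagen, read 10.80, 9.51, 10.22 and 10.27 in wildtype and 8.63, 8.64, 9.24 and 9.80 in cKO arrays, with 1 of its 2 other probe sets at 0.16. Ogn, a small proteoglycan, read 10.54, 9.83, 10.10 and 9.93 against 9.21, 9.13, 9.68 and 9.81, and Col5a2, a fibrillar collagen, 11.37, 10.43, 10.83 and 10.41 against 10.17, 10.05, 9.93 and 10.30. In Ogn and Col5a2 the gap between the groups was narrow, and wildtype replicate 1 was highest. Aspn gave −0.74. Wildtype arrays themselves were wide apart for this list, with medians of 0.43 in replicate 1 and −0.41 in replicate 2, against −0.23 to −0.42 in the cKO arrays.

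Surface epithelium was uneven between arrays. Of 40 genes of corneal and conjunctival epithelium, 1 was called (St14), and the median was −0.27. At an unadjusted p under 0.05, 2 were higher (5%, against 8.25% of all genes) and 6 lower (15%, against 8.62%). Trp63, the transcription factor of stratified epithelium, read 7.07, 7.04, 6.70 and 6.80 in wildtype and 5.93, 5.78, 5.24 and 4.80 in cKO arrays (−1.47 ± 0.24 SE, limma adjusted p = 0.0878), but its 2 other probe sets, both dimmer, gave 0.11 and 0.02. Dsg2, a desmosomal cadherin, read 7.60, 7.47, 8.93 and 8.10 against 6.57, 6.65, 6.53 and 6.19, with 4 of 5 other probe sets of the same sign. Krt5, the basal keratin, gave −0.99, and −0.67 without wildtype replicate 3. Of 28 markers of cornified skin and hair follicle, 25 were negative and 7 lower at that threshold (25%, against 8.62% of all genes). Without wildtype replicate 3, 4 were lower, against 869 of 12393 over all genes. The mean level over the 28 ran from 4.18 to 6.54 in wildtype and from 4.09 to 4.34 in cKO arrays, and the list medians relative to the wildtype mean were −0.62, −0.70, 1.45 and −0.05 in wildtype. The median difference of −0.72 was −0.22 without wildtype replicate 3, the only array whose list median was above 0, and 0.01 with the Gapdh difference as a covariate. Krt6a gave −1.02 and −0.71 without it, Krt71 −1.56 and −0.89, Msx2 −0.73 and −0.55, and Gata3 −0.72 and −0.59.

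**Figure D5:**
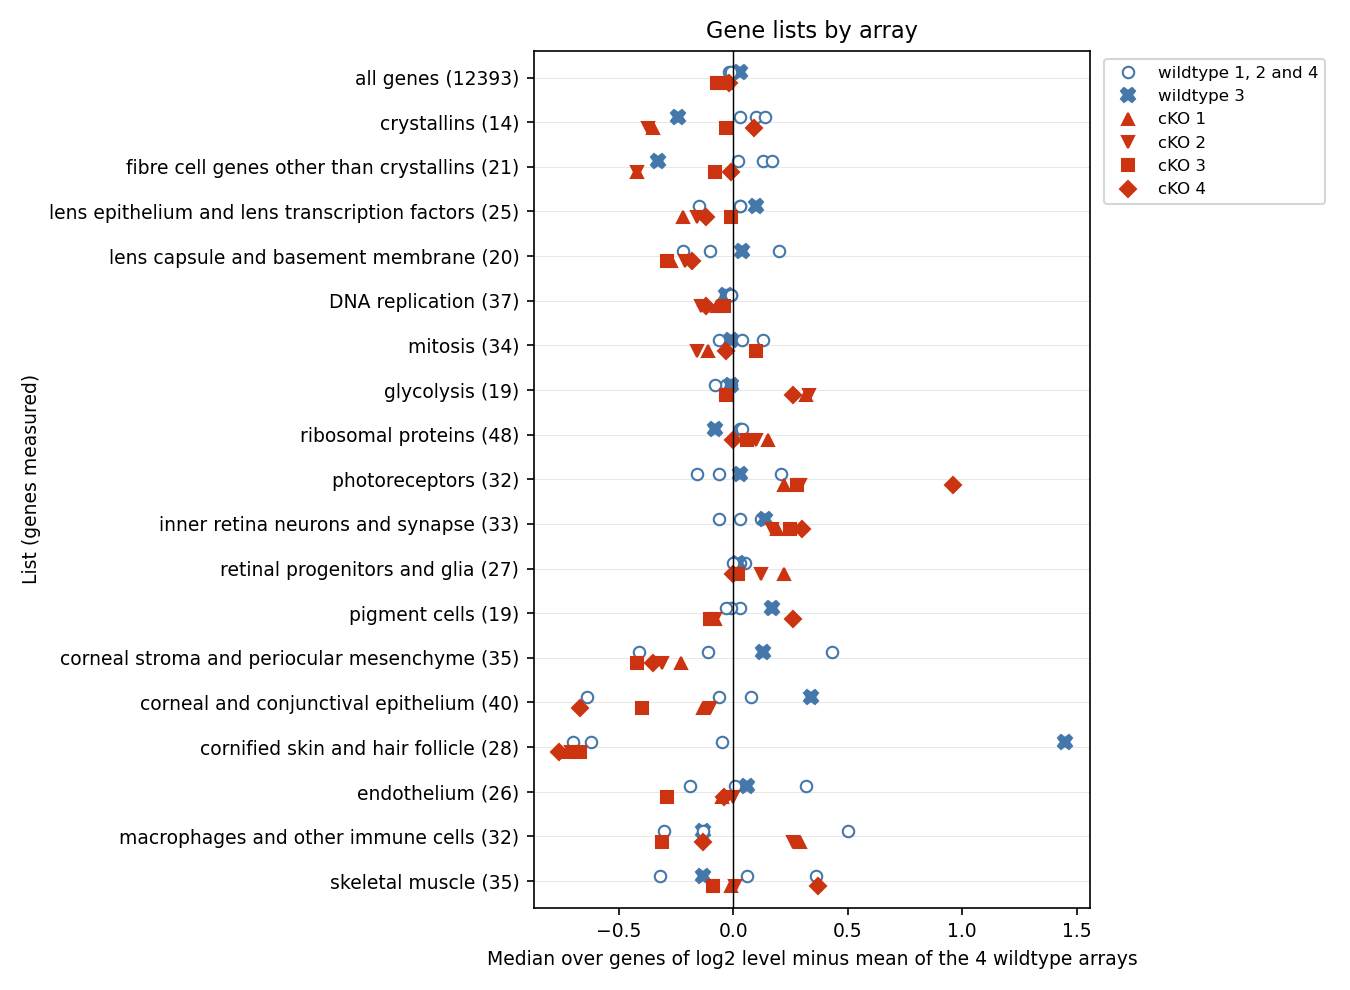
Median over the genes of each list of the log2 level minus the mean of the 4 wildtype arrays, for each array (genes measured in brackets). Photoreceptor genes are highest in cKO replicate 4 (0.96), cornified skin genes in wildtype replicate 3 (1.45), and crystallin and fibre genes lowest in cKO replicates 1 and 2 and, among wildtype arrays, in replicate 3.

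Vessel, immune and muscle genes went both ways. Over all genes 8.25% were higher and 8.62% lower at an unadjusted p under 0.05. Of 26 endothelial genes 1 was higher (3.85%) and 3 lower (11.5%) at that threshold. Fli1, an ETS factor, was at −1.36, the lymphatic receptor Lyve1 at −0.88, Robo4 at −0.60 and the growth factor receptor Kdr at 0.33. Of 32 macrophage and other immune genes 5 were higher (15.6%) and 3 lower (9.38%). C1qa, of complement, read 5.43, 4.32, 3.46 and 5.30 in wildtype and 6.35, 6.53, 5.66 and 5.60 in cKO arrays, and Trem2, a receptor of microglia, gave 0.61 with its other probe set at −0.31. Cma1, a mast cell chymase, gave −0.85 and the dim T cell gene Cd3e −0.97. Wildtype replicate 1 was high for this list, with a median of 0.50 relative to the wildtype mean, as were cKO replicates 1 and 2 at 0.29 and 0.26. Of 35 muscle genes 2 were higher (5.71%) and 3 lower (8.57%). The fetal acetylcholine receptor subunit Chrng was at −0.80, Actn2 at −0.79, Casq2 at −0.47 and Tnnc2 at 0.43. Of 20 red blood cell genes 1 was higher (5%) and 4 lower (20%), with a median of −0.37.

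Of 36 chromatin remodelling subunits 9 were higher (25%, against 8.25% of all genes) and 0 lower at an unadjusted p under 0.05, 0 were called and the median was 0.09, which became −0.01 with array weights. Chd4, the motor of NuRD, read 7.71, 7.89, 7.60 and 7.45 in wildtype and 8.22, 8.09, 8.11 and 8.02 in cKO arrays, and its 2 other probe sets gave 1.32 and 1.64. Smarcc1, of SWI/SNF, read 8.62, 9.10, 8.20 and 9.25 against 9.54, 9.63, 9.48 and 9.36, Mta2 gave 1.04 and Atrx 0.55. Without wildtype replicate 3, the lowest array for Smarcc1, Mta2 and Atrx, 6 of the 36 were higher, against 863 of 12393 over all genes, and the Mta2 difference was 0.72. Of 20 histone genes 4 were higher (20%) and 1 lower (5%, against 8.62% of all genes). H2ac19 was at 0.90, H1f4 at 0.70 and H2ap at −0.65. H13, the symbol of a signal peptide peptidase caught by the list's name pattern, was at 0.63.

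In glycolysis 5 of 19 genes were higher (26.3%, against 8.25% of all genes) and 0 lower at an unadjusted p under 0.05, with a median of 0.21. Slc2a3, a neuronal glucose transporter, read 8.07, 8.0, 8.42 and 7.41 in wildtype and 8.83, 8.81, 8.57 and 8.92 in cKO arrays. Pkm, pyruvate kinase, read 11.70, 11.82, 11.54 and 11.97 against 12.30, 12.23, 11.94 and 12.19, Bnip3 gave 0.48 and Pfkl 0.87. The list median was 0.32, 0.33 and 0.26 in cKO replicates 1, 2 and 4 but −0.03 in cKO replicate 3, inside the wildtype range of −0.08 to −0.01, and 2 of the 19 were higher with the pair averaged, against 667 of 12393 over all genes. Of 31 genes of autophagy and lysosome 5 were higher (16.1%, against 8.25% of all genes) and 0 lower. Atg5, an autophagy conjugation factor, read 6.76, 6.42, 6.18 and 6.92 against 7.18, 7.31, 7.52 and 7.41, Map1lc3a gave 1.03, Gabarapl1 0.46 and the protease Lgmn 1.16. Higher and lower counts in the other lists were 6 and 5 of 76 for oxidative phosphorylation, 6 and 1 of 38 for proteasome subunits, 5 and 0 of 56 for splicing factors, 2 and 1 of 29 for chaperones, 2 and 1 of 26 for p53 targets, 3 and 2 of 28 for acyl-CoA metabolism, with Acsf2 as the 1 called gene, and 0 and 0 of 17 for cholesterol synthesis. The shares over all genes were 8.25% higher and 8.62% lower.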

How the data were processed

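Single-colour arrays measured total RNA of newborn mouse eyes. The deposited values are linear intensity per probe set, made by the authors with RMA per the submitters' processing notes; its version, and whether all 14 arrays were processed together, are not given in the sources used here. The log2 of the deposited intensity was taken with no further normalisation. Of 22690 probe sets, 64 were controls, 20380 paired with 1 gene symbol, 691 with several and 1555 with none in the platform annotation; 20351 matched a RefSeq gene. Each of 12393 genes was represented by its brightest probe set on average over the 8 arrays.

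limma 3.58.1 in R 4.3.3 (lmFit and eBayes) compared 4 cKO with 4 wildtype arrays, with Benjamini-Hochberg adjustment over all genes and a call at an adjusted p under 0.05. The genes named were Smarca5, called genes, the 10 brightest, those of smallest p without overlap (10 bright, 6 middle and 3 dim in each direction) and up to 4 of smallest p in each of the lists described; which lists are described gene by gene was chosen after values were seen, as were genes said to be picked. Members and lists were chosen with earlier results of these data known. On simulated data of 12393 genes, 3 of 50 genes changed by 0.5 on the log2 scale were called, 27 of 50 at 1, 47 of 50 at 2 and 49 of 50 at 3, with 7 of 12193 unchanged ones. The simulated arrays were independent, with an equal spread in both groups. They held no near-identical pair and no degraded array, so these rates need not hold for the real arrays. Deviations of same-numbered arrays correlated at 0.11, −0.28, −0.19 and 0.02, and those of differently numbered arrays at −0.26 to 0.30. These values cannot tell whether the numbers pair samples, and the labels do not say. The main fit left the samples unpaired. No slide or scan batch is given. The number of arrays limits the precision.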

Additional observations from a re-analysis of the deposited data

Results flagged for a closer look

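In 21 of 320 groups of 4 arrays, 1 array lay far from the other 3. For 4 independent arrays chance exceeds that gap in about 1 of 20 groups, so the count is near the share given by chance. cKO replicates 1 and 2 are near-identical and not independent, which favours replicate 3 or 4 as the array apart in cKO groups. The array was wildtype replicate 3 in 5 of the 21, cKO replicate 3 in 6, cKO replicate 4 in 4, cKO replicate 1 in 1 and cKO replicate 2 in 0. Wildtype replicate 3 had the Gapdh 3' minus 5' difference of 4.47 against 1.09 to 1.46. It also had the lowest ribosomal protein median (−0.08 against 0.03 to 0.04), oxidative phosphorylation median (−0.09 against 0.04 to 0.06), Crygs level (12.58 against 12.89 to 12.96) and Mta2 level (3.67 against 4.88 to 5.03) among wildtype arrays.

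Among cKO arrays, replicate 4 had the highest photoreceptor median (0.96 against 0.22 to 0.29) and pigment cell median (0.26 against −0.10 to −0.08), and the highest Hebp2 (7.96) and Casq2 (9.37). In replicate 3, Dusp26 (10.20), Slc15a2 (10.62), Uxt (9.68) and H1f4 (5.01) were lowest, Chrng (7.63) was highest and the endothelial median was −0.29. Trem2 was highest in cKO replicate 1, at 5.71.

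Among the other wildtype values, Smarca5 was highest in replicate 2 (9.82) and Ndc80 likewise (9.13). St14 (6.68) and Crygf (12.58) were lowest in replicate 1, and Rpl35 (13.15) in replicate 4.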

How the results depend on the processing

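Where 2 genes were called, 0 were with quantile normalisation, with cKO replicates 1 and 2 averaged, and with that pair averaged and wildtype replicate 3 left out. The count was 4 among genes with a mean of at least 8 (Hebp2, Gnb3, Map1b and Kif5c), 5 with an offset of 32 (St14, Gnb3, Acsf2, Epha4 and Hebp2), 7 with trended robust eBayes, 215 with array weights, 4 with all 14 arrays (Acsf2, Foxd1, St14 and Aox4), 1 with the Gapdh covariate (Slc22a29) and 4 with the Xist covariate (Syt6, Tfpi2, Gatad2b and Acsf2). Leaving out 1 array gave 0 to 67 calls: 67 without wildtype replicate 1, 8 without replicate 4, 1 without replicate 2 (Zfp982) or 3 (Slc22a29), 0 without cKO replicate 1 or 2 and 1 without cKO replicate 3 (Acsf2). Array weights gave cKO replicates 1 and 2 weights of 3.68 and 4.25. Genes outside the naming rule are given for these counts after their values were seen.

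The replicate number as a block gave 0 calls, 1846 genes at an unadjusted p under 0.05 and 146 bright ones, where the fit without it gave 2, 2090 and 198. Other moves of the 2090 were 1144 with the pair averaged and wildtype replicate 3 left out and 1012 among genes with a mean of at least 8, and leaving out 1 array gave 1403 to 2695. The 198 bright genes became 119 with the pair averaged, 76 with replicate 3 also left out, 324 with the offset, 328 with trended robust eBayes, 351 with array weights and 83 with the Gapdh covariate, and 112 to 342 with 1 array left out (342 without wildtype replicate 4, 123 and 112 without cKO replicate 1 and 2).

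Differences that changed sign were small in all genes but Gadd45b. Gadd45b, at −0.47 with its brightest probe set, became 0.06 over the mean of all its probe sets. Smarca5 became 0.06 without cKO replicate 3 (−0.34 to 0.06 with each array left out). Rpl35 became 0.06 over all probe sets, 0.04 with array weights, 0.05 with the Gapdh covariate, and ran from −0.08 to 0.07 with each array left out. Crybb3 became 0.04 with the pair averaged and 0.04 with the Xist covariate, and ran from −0.14 to 0.06 with each array left out. Causes were not tested. List medians of chromatin remodelling, autophagy, cell cycle exit, histone, mitosis, pigment, glial, immune, muscle, oxidative phosphorylation, chaperone, p53, cholesterol, splicing, acyl-CoA and cornified skin genes did not keep their sign in all 20 settings. Which dim genes lie near background is not known without detection calls.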

Other observations

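The genes below belong to no list described above and were chosen after their values were seen. Wfdc18 and Stfa3 differed widely between arrays of the same group. Wfdc18, a secreted whey acidic protein family member, read 11.36, 3.43, 11.88 and 10.83 in wildtype and 11.68, 11.62, 3.20 and 4.47 in cKO arrays, so 1 wildtype and 2 cKO arrays were low and the other 5 bright. Stfa3, a stefin that inhibits cysteine proteases, was at 12.13 in wildtype replicate 3 and at 5.51 to 10.06 in the other 7 arrays.

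Cap1, which binds actin monomers, read 9.0, 9.03, 8.53 and 10.21 in wildtype and 5.81, 6.08, 9.26 and 6.43 in cKO arrays. In cKO replicate 3 it lay inside the wildtype range, and in the other cKO arrays below it.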
